A study of Mus musculus with 9 samples.

Results

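The genes described here are those of autophagy, of the lysosome and of the vacuolar ATPase (V-ATPase), measured on one-colour microarrays in 3T3-L1 cells. They were taken as every gene whose name starts with Atp6v or with Atg and a digit, together with a fixed list of other autophagy genes, cathepsins, glycosidases and lysosomal membrane proteins. This gave 65 genes with 119 probes, out of 41174 gene probes on each array. A gene could be tested where some group had a probe well above background on each of its 3 arrays, which left 60 of the 65 genes, out of 16736 genes tested in all. Of these 60, 59 were above background on every array of the study. The other 5 (Atp6v1b1, Atp6v1g3, Atp6v0a4, Atp6v0d2 and Atg9b) had no such probe.

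3T3-L1 is an established mouse fibroblast line, derived as 1 clone, that can be turned into adipocytes in culture. The labels call the cells preadipocytes. Each group had 3 arrays. The first group received X-3 and the second X-1, both at 70 µM for 24 h, and the third was left untreated as control. All 3 groups, control included, had been kept in 10% fetal bovine serum and then without serum for 48 h, a condition that by itself bears on autophagy. The series title calls X-1 and X-3 derivatives of mangiferin, a plant xanthone, and the labels give no structure and no vehicle. The design text describes 9 independent experiments, and the p-values measure the spread between these samples within groups. Group was the only term of the fit, so that spread includes differences between the slides.

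In autophagy, a double membrane closes around part of the cytoplasm and then fuses with a lysosome, where hydrolases digest the contents. The ULK kinases and the Beclin 1 lipid kinase complex start the process, and a conjugation system resembling ubiquitin ligation attaches ATG8 proteins (the LC3 and GABARAP families) to the growing membrane. The V-ATPase pumps protons into the lysosome, which its hydrolases need in order to work, and transcription factors of the TFEB family drive many of these genes.

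Levels are log2 intensities relative to the 75th percentile of the same array, so a level of 0 is that percentile. A level can be compared between arrays for 1 probe, not between probes. A difference is given as log2 ± standard error, and a gene is said to have risen or fallen where limma gave an adjusted p below 0.05 over all 16736 genes. In all, 3 comparisons were made on each gene (X-3 over control, X-1 over control and X-3 over X-1), and p-values were adjusted within each. X-3 over control and X-1 over control share the control arrays. In such bulk RNA, fewer cells of a type and less RNA per cell cannot be told apart.

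Each array had 43379 gene spots, of which 57.9% to 67.1% were well above background and 0 were saturated. Arrays with the same replicate number shared a slide. On every slide X-3 took place 3, X-1 place 2 and control place 1, so the place on the slide and the group cannot be told apart. Slide 1 was scanned on another day with an earlier software version and carried no spike-in RNA. All 10 preadipocyte and fibroblast markers examined were measured, with a summed log2 level of 10.24 to 10.35 on X-3, 10.20 to 10.46 on X-1 and 10.19 to 10.46 on control arrays. The sum does not show single markers: 3 rose and 4 fell with each compound. Their differences ran from −1.58 to 3.59 with X-3 and from −1.42 to 3.39 with X-1. Of 8 adipocyte markers, 3 were measured, and Adipoq, Plin1, Lep, Cfd and Cidec had none that could be tested. The 3 measured had a summed log2 level of 2.22 to 2.93 on X-3, 2.85 to 3.05 on X-1 and 2.18 to 2.70 on control arrays. Of these, 1 rose and 1 fell with X-3 (differences from −2.48 to 0.63), and 2 rose and 1 fell with X-1 (from −2.84 to 0.66).

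With X-3, 34 of the 60 genes were called, 20 higher and 14 lower, a share of 56.67%. Among all genes tested, 55.6% were called in this comparison, 29.3% higher and 26.4% lower, so the share of these genes was close to the background. With X-1, 27 of 60 were called, 14 higher and 13 lower, a share of 45.0% against a background of 56.5% (28.2% higher and 28.3% lower). The median difference of the 60 genes was 0.17 with X-3 and −0.06 with X-1, where the median of all genes was 0.06 in both comparisons. Between the compounds, 12 of 60 were called in X-3 over X-1, 10 higher and 2 lower, a share of 20.0% against a background of 10.9% (7.19% higher and 3.66% lower). The counts by role and by list given below are to be read beside these background shares, and no departure from them was tested.

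Called differences of at least 2-fold were seen for 10 genes with X-3 (background 27.1%), for 14 with X-1 (background 29.9%) and for 3 in X-3 over X-1 (background 1.85%). These counts include Atp6v1c2, which was above background in the X-3 group alone, in all 3 comparisons. For Atp6v1c2 a 2-fold difference is not established in X-1 over control, where both groups were dim. Nor is it in X-3 over X-1, where its bound is 1.69-fold. Among the 59 genes above background on every array they were 9, 13 and 2, and the genes called were 33 with X-3, 26 with X-1 and 11 in X-3 over X-1. The arrays of both groups did not overlap for 37 genes in X-3 over control (background 62.2%), for 34 in X-1 over control (background 68.5%) and for 27 in X-3 over X-1 (background 31.2%).

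These directions are relative to the other genes of each array. Scaling to the spike-in RNA of replicates 2 and 3 moved the median difference of all genes by −0.71 with X-3 and by −0.90 with X-1. With 2 arrays left in each group, the adjusted p then followed the size of a difference and not the spread of the single gene. Of all 16736 genes, spike-in scaling called 1845 higher and 8379 lower with X-3, and 1543 higher and 9940 lower with X-1. Under that scaling 4 of the 60 genes were higher and 27 lower with X-3, and 2 were higher and 38 lower with X-1. Of the genes that rose under the 75th percentile, 9 of 20 stayed above 0 with X-3 (among them Atg2b, Map1lc3a, Ctss, Ctsl, Gaa and Gla) and 7 of 14 stayed above 0 with X-1. Staying above 0 was mostly not a call. With X-3 Ctss was still called, while Atg2b (0.37), Map1lc3a (0.27), Gaa (0.09), Gla (0.02) and Ctsl (0.01) were not (adjusted p 0.286 to 0.981). With X-1 Atg2b, Atg12, Atg16l1, Ctsh and Ctsl (0.14 to 0.39) were not called. The 14 genes that fell with X-3 and the 13 that fell with X-1 were all below 0 under spike-in scaling too. A scaling that moves the genes downward leaves little room for another outcome, so this is no separate support for the falls. Scaling to the array median moved all genes by −0.21 in both comparisons and gave 8 higher and 15 lower with X-3, and 7 higher and 16 lower with X-1. Quantile normalization gave 18 higher and 17 lower with X-3, and 11 higher and 19 lower with X-1.

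**Figure D1:**
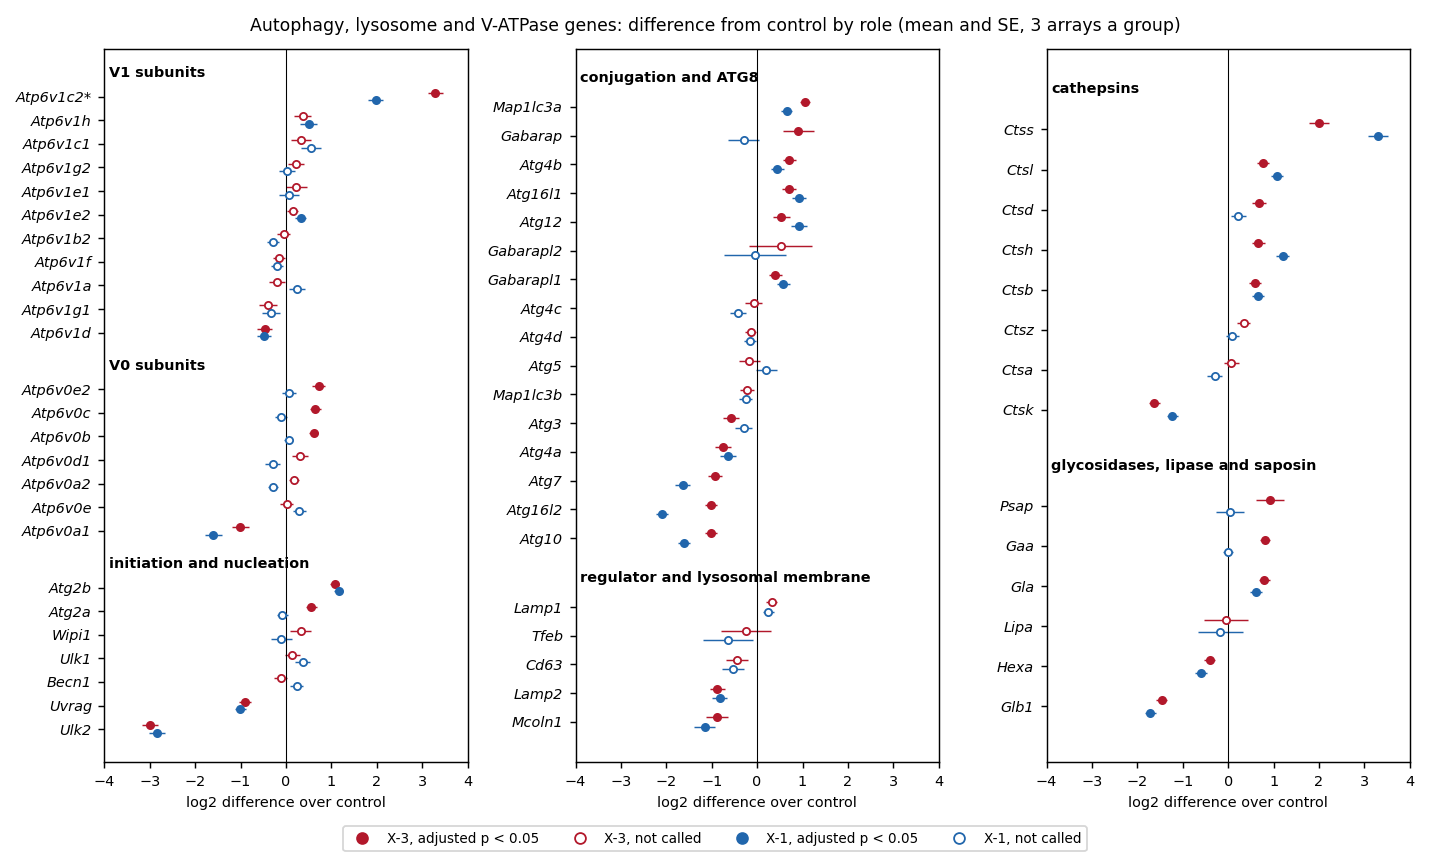
Log2 difference from control of the 60 genes tested, by role, with X-3 (red) and X-1 (blue), where bars are standard errors (3 arrays a group) and filled points were called. With X-3 20 genes lay to the right and 14 to the left among those called, and with X-1 14 and 13, but under spike-in scaling 11 of those 20 and 7 of those 14 no longer lay above 0; the starred Atp6v1c2 was not well above background on the control and X-1 arrays.

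TFEB and its relatives are known to bind the letters GTCACGTG, which hold the E-box CACGTG, in promoters of lysosomal genes. RefSeq promoter windows (GRCm38.p6, 250 bases before to 50 after a gene's start) were found for 53 of the 65 genes, 62 windows in all. GTCACGTG, read on either strand, was present in 10 of these 62 windows (16.1%), compared with 2.25% of all 32851 mouse promoter windows. CACGTG, which every GTCACGTG contains, was present in 15 of the 62 windows (24.2%), compared with 7.15% of all windows. The 10 genes with GTCACGTG did not move together. With X-3, 3 of them rose (Atp6v0b, Ctsd and Gla), 4 fell (Atg3, Atg7, Mcoln1 and Glb1) and 3 were not called (Atp6v0d1, Ctsa and Lamp1). With X-1, 1 rose (Gla), 3 fell (Atg7, Mcoln1 and Glb1) and 6 were not called. Among all genes tested, 29.3% were called higher and 26.4% lower with X-3, and 28.2% higher and 28.3% lower with X-1. Whether the 10 genes depart from these shares was not tested. With array-median scaling Atp6v0b and Ctsd were not called with X-3 (adjusted p = 0.0953 and 0.139), nor Gla with X-1 (adjusted p = 0.135). Under spike-in scaling Atp6v0b, Ctsd and Gla were not called with X-3 (−0.11, −0.24 and 0.02). Atp6v0d1 and Ctsa were then called lower (−0.66 and −0.83), and the genes that fell stayed below 0. With X-1 that scaling called Atg3, Atp6v0b, Atp6v0d1, Ctsa and Ctsd lower too (−1.14, −0.88, −1.43, −1.18 and −0.72), and Gla was not called (−0.27). With the mean of all probes, Atg7, Mcoln1 and Gla were not called with X-3 (adjusted p 0.118 to 0.705). By that mean Atg3 (−1.23, adjusted p = 2.31e-05) and Ctsa (−0.50, adjusted p = 0.00931) fell with X-1, and Atg7 was not called (adjusted p = 0.748). The X-3 fall of Atg3 was lost without control replicate 2 or 3 or X-3 replicate 2 (adjusted p 0.0514 to 0.0842). A match is a description of these letters, and binding was not measured. Shown here are windows of 2 genes that fell with both compounds, of 2 that rose with X-3, and of Lamp1, which was not called, with GTCACGTG or CACGTG in capitals on the strand of the gene:
Mcoln1, chr8:3500269-3500568, plus strand: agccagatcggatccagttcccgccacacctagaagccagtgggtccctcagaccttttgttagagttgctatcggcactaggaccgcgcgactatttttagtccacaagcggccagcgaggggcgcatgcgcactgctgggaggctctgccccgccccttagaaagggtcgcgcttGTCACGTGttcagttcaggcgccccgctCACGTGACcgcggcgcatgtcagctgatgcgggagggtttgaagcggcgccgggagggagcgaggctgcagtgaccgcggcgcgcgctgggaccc
Glb1, chr9:114400828-114401127, plus strand: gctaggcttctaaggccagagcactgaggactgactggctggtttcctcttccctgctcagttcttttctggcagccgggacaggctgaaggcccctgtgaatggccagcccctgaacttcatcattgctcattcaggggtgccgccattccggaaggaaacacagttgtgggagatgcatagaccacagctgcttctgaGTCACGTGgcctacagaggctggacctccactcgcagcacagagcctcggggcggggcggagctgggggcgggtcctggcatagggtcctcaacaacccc
Ctsd, chr7:142387778-142388077, minus strand: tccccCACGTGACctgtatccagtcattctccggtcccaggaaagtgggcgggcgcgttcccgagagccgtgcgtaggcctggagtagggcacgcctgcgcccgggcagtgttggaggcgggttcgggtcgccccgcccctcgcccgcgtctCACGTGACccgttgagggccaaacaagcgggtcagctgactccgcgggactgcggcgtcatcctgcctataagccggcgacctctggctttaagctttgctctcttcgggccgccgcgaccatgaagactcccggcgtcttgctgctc
Atp6v0b, chr4:117887280-117887579, minus strand: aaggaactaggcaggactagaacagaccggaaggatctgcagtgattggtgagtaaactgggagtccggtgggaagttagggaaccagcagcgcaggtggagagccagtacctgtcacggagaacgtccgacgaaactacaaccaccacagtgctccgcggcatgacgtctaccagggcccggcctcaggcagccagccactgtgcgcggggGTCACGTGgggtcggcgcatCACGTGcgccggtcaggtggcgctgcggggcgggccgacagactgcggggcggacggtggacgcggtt
Lamp1, chr8:13158911-13159210, plus strand: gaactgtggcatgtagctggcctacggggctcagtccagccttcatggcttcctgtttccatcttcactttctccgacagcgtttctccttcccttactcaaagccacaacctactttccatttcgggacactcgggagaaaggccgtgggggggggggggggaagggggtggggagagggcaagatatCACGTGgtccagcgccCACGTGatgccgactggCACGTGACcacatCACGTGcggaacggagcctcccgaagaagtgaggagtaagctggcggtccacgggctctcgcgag

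In these windows the first base of GTCACGTG, or of its reverse CACGTGAC, lay 73 and 45 bases before the gene start in Mcoln1, 50 bases before it in Glb1 and 38 bases before it in Atp6v0b. In Ctsd it lay 245 and 98 bases before the start, and in Lamp1 28 bases before it. The same letters thus stand in windows of genes that fell (Mcoln1, Glb1) and of genes that rose with X-3 (Ctsd, Atp6v0b).

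The V1 sector of the V-ATPase is the cytosolic part that splits ATP. Of its 13 subunit genes, 11 were tested. With X-3, 1 rose and 1 fell, and with X-1, 3 rose and 1 fell, with median differences of 0.15 and 0.06. Without Atp6v1c2, which was dim on all X-1 and control arrays, none rose with X-3 and 2 rose with X-1. Those 2 were near the threshold: Atp6v1e2, an isoform of the E subunit (0.32 ± 0.12, adjusted p = 0.0488, or 0.0596 with the slide as a block), and Atp6v1h, the H subunit that regulates the pump (0.50 ± 0.18, adjusted p = 0.0438). With array-median scaling neither was called (adjusted p = 0.628 and 0.327), and each call was lost on leaving out 1 of several arrays: any X-1 array, control replicate 1 or 3, or X-3 replicate 2 or 3 for Atp6v1e2 (adjusted p 0.0545 to 0.157), and X-1 replicate 2 or 3, control replicate 1 or 3, or X-3 replicate 2 or 3 for Atp6v1h (adjusted p 0.0602 to 0.133). Under spike-in scaling the counts were 1 higher and 4 lower with X-3, and 1 higher and 6 lower with X-1. The catalytic subunit gene Atp6v1a had levels of 1.91, 2.27 and 2.13 on X-3 arrays, 2.70, 2.49 and 2.44 on X-1 arrays, and 2.64, 2.05 and 2.21 on control arrays. Both treated groups overlapped the control arrays, and neither difference was called (−0.19 ± 0.18 with X-3 and 0.25 ± 0.18 with X-1).

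Atp6v1d, a subunit of the central stalk that couples ATP splitting to rotation, fell with both compounds. Its levels were 3.78, 3.46 and 3.45 on X-3 arrays, 3.25, 3.72 and 3.66 on X-1 arrays, and 3.99, 4.14 and 3.97 on control arrays. Every treated array was below every control array. The differences were −0.47 ± 0.16 with X-3 (limma, adjusted p = 0.0322) and −0.49 ± 0.16 with X-1 (adjusted p = 0.0271), the largest falls among the V1 genes. With X-3 the call was lost without any 1 of the 3 control arrays or without X-3 replicate 2 or 3 (adjusted p 0.0570 to 0.102). With X-1 it was lost without X-1 replicate 1 or control replicate 2 or 3 (adjusted p 0.0545 to 0.0888).

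Atp6v1c2, an isoform of the C subunit, was well above background on the 3 X-3 arrays and on none of the X-1 or control arrays, and it entered the test through the X-3 group alone. Its levels were −4.78, −4.96 and −5.02 on X-3 arrays, −6.26, −6.33 and −6.11 on X-1 arrays, and −8.14, −8.53 and −7.95 on control arrays. Against the lowest signals that counted as above background, it was at least 2.25-fold higher with X-3 than in control (adjusted p = 1.04e-06) and at least 1.69-fold higher with X-3 than with X-1 (adjusted p = 0.00379). The X-1 and control values behind these p-values are signals that did not stand above background. The p-values therefore do not test the bounds, and no more than the bounds is given. No fold is given for X-1 over control, where both groups were dim, although that comparison is counted among the 3 V1 genes that rose with X-1. With another background correction (normexp) it was not called in X-1 over control (adjusted p = 0.0590) or in X-3 over X-1 (adjusted p = 0.489).

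The V0 sector is the part in the membrane through which protons pass. Of its 9 subunit genes, 7 were tested. With X-3, 3 rose and 1 fell, and with X-1, none rose and 1 fell, and under spike-in scaling none was higher with either compound while 3 were lower with X-3 and 6 with X-1. With the mean of all probes, 4 rose with X-3 and 1 with X-1. By that mean Atp6v0e was higher with X-3 (0.58, adjusted p = 0.00585) and with X-1 (0.87, adjusted p = 0.000588). The 3 that rose with X-3 by the brightest probe encode parts of the proton-carrying ring and a small membrane subunit. Atp6v0b, one of the proteolipids of the ring, had levels of 4.0, 3.94 and 3.93 on X-3 arrays, 3.53, 3.37 and 3.33 on X-1 arrays, and 3.39, 3.33 and 3.33 on control arrays. All X-3 arrays were above all others, and the X-1 and control arrays overlapped. The difference was 0.61 ± 0.11 with X-3 (adjusted p = 0.00114) and 0.06 ± 0.11 with X-1.

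Atp6v0c, the main proteolipid of the ring, had levels of 1.51, 1.56 and 1.68 on X-3 arrays, 0.99, 0.72 and 0.78 on X-1 arrays, and 0.80, 0.96 and 1.06 on control arrays. Again the X-3 arrays stood above the other 6, among which X-1 and control overlapped. The difference was 0.65 ± 0.13 with X-3 (adjusted p = 0.00211) and −0.11 ± 0.13 with X-1. Atp6v0e2, an isoform of the small e subunit, had levels of −0.14, −0.10 and −0.09 on X-3 arrays, −1.01, −0.56 and −0.74 on X-1 arrays, and −1.03, −0.71 and −0.76 on control arrays. It rose by 0.72 ± 0.15 with X-3 (adjusted p = 0.00278), and its difference with X-1 was 0.06 ± 0.15. A second Atp6v0e2 probe rose by 1.29 with X-3 and was higher with X-3 than with X-1 by 0.96 (adjusted p over all probes = 9.37e-05 and 0.00932). With array-median scaling none of the 3 was called in X-3 over control (adjusted p 0.0605 to 0.0953).

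Atp6v0a1, an isoform of the large a subunit that places the pump in its membrane, fell with both compounds. Its levels were −2.12, −1.87 and −1.98 on X-3 arrays, −2.54, −2.70 and −2.51 on X-1 arrays, and −1.42, −0.82 and −0.70 on control arrays. By the brightest probe the 3 groups did not overlap, with control highest and X-1 lowest. The differences were −1.01 ± 0.19 with X-3 (adjusted p = 0.00168) and −1.61 ± 0.19 with X-1 (adjusted p = 8.84e-05). Its other 2 probes fell with both compounds too, but differed between the compounds by 0.17 and −0.30, where the brightest differed by 0.60, and none of the 3 was called there.

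In X-3 over X-1, 4 of the 7 V0 genes were called and all 4 were higher, against a background of 7.19% called higher among all genes. On none of the 7 did the X-3 and X-1 arrays overlap, which held for 31.2% of all genes. Atp6v0e was lower with X-3 and the other 6 were higher. The called differences were 0.75 ± 0.13 for Atp6v0c (adjusted p = 0.00926), 0.55 ± 0.11 for Atp6v0b (adjusted p = 0.0150), 0.66 ± 0.15 for Atp6v0e2 (adjusted p = 0.0258) and 0.46 ± 0.11 for Atp6v0a2 (adjusted p = 0.0328). Atp6v0d1 and Atp6v0a1 each differed by 0.60 and missed the threshold (adjusted p = 0.0603 and 0.0750). The median V0 difference within slides 1, 2 and 3 was 0.48, 0.50 and 0.61, where the median of all genes was 0.16, −0.02 and −0.0019.

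These V0 calls between the compounds were close to the threshold. The count of 4 was 1 with array-median scaling, 2 with spike-in scaling and 3 with normexp or with the mean of all probes. Atp6v0c stayed called without any 1 array. Atp6v0b was lost without X-1 replicate 2 or 3 or X-3 replicate 2 or 3 (adjusted p 0.0519 to 0.0673). Atp6v0e2 was lost without control replicate 3, X-1 replicate 1 or 3, or X-3 replicate 2 or 3 (adjusted p 0.0502 to 0.0807). Atp6v0a2 was lost without control replicate 2 or 3, any X-1 replicate, or X-3 replicate 2 or 3 (adjusted p 0.0517 to 0.112), and its other 2 probes differed by −0.06 and −0.03. Without control replicate 1, Atp6v0a1 (adjusted p = 0.0239) and Atp6v0d1 (adjusted p = 0.0206) were called.

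**Figure D2:**
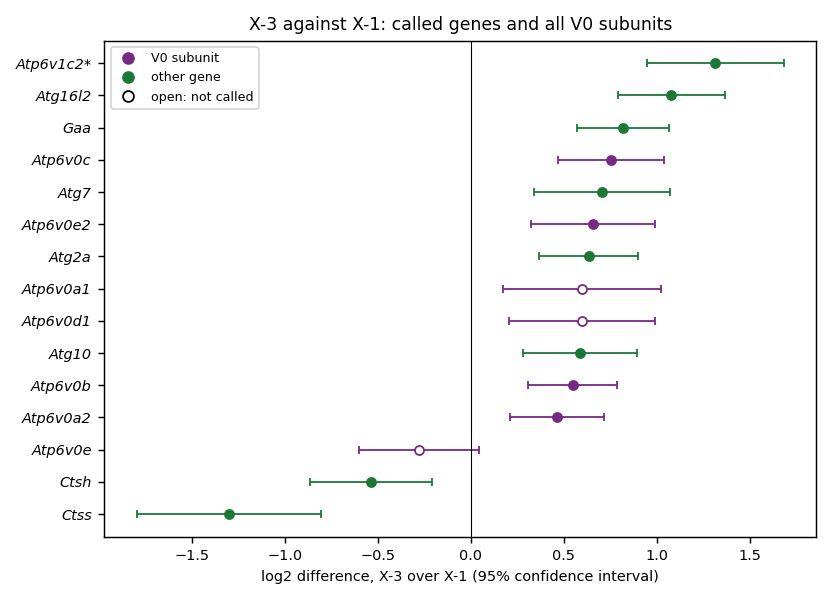
Log2 difference X-3 over X-1 with its 95% confidence interval for the 12 genes called and for all 7 V0 subunits (purple); open points were not called. Of those called, 10 genes, 4 of them V0 subunits, lie to the right of 0 and 2 cathepsin genes lie to the left, and the starred Atp6v1c2 was not well above background with X-1.

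Of 8 genes that start the autophagosome, 7 were tested. With X-3, 2 rose and 2 fell, and with X-1, 1 rose and 2 fell, and under spike-in scaling none was higher while 3 were lower with X-3 and 4 with X-1. By the brightest probe of each gene, Ulk2, one of the kinases that start autophagy, fell more than any other of the 60 genes with both compounds. Its levels were −2.16, −2.73 and −2.65 on X-3 arrays, −2.58, −2.30 and −2.19 on X-1 arrays, and 0.39, 0.60 and 0.48 on control arrays. The control arrays lay far above both treated groups, which overlapped each other. The differences were −3.0 ± 0.18 with X-3 (adjusted p = 2.29e-06) and −2.85 ± 0.18 with X-1 (adjusted p = 2.16e-06), by the brightest of 3 probes.

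Its paralog Ulk1 had levels of 4.47, 4.38 and 4.51 on X-3 arrays, 4.32, 4.88 and 4.87 on X-1 arrays, and 4.20, 4.39 and 4.37 on control arrays. The groups overlapped, and the differences of 0.13 ± 0.16 with X-3 and 0.37 ± 0.16 with X-1 were not called, although without X-1 replicate 1 the X-1 difference was 0.56 (adjusted p = 0.00584). The mean of all Ulk1 probes was called with X-3 (0.49, adjusted p = 0.00860) and with X-1 (0.39, adjusted p = 0.0238).

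Becn1, the scaffold of the lipid kinase complex, had levels of 1.35, 1.28 and 1.38 on X-3 arrays, 1.46, 1.76 and 1.85 on X-1 arrays, and 1.37, 1.64 and 1.35 on control arrays. Both treated groups overlapped control, and the differences of −0.11 ± 0.14 with X-3 and 0.24 ± 0.14 with X-1 were not called. Uvrag, a partner of Beclin 1, had levels of 1.86, 1.56 and 1.58 on X-3 arrays, 1.51, 1.69 and 1.51 on X-1 arrays, and 2.51, 2.67 and 2.54 on control arrays. By this brightest probe all treated arrays lay below control, and Uvrag fell by 0.91 on the log2 scale with X-3 (SE 0.13, adjusted p = 0.000315) and by 1.01 with X-1 (SE 0.13, adjusted p = 0.000146). A second probe was called in the opposite direction with both compounds, and the mean of both probes was 0.29 with X-3 and 0.050 with X-1 and was not called, so the direction for Uvrag depends on the probe.

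The lipid transfer proteins that feed the growing membrane differed from each other. Atg2b had levels of 0.42, 0.38 and 0.37 on X-3 arrays, 0.54, 0.46 and 0.43 on X-1 arrays, and −0.63, −0.67 and −0.74 on control arrays. The replicates lay close together, and Atg2b rose by 1.07 ± 0.10 with X-3 (adjusted p = 2.94e-05) and by 1.16 ± 0.10 with X-1 (adjusted p = 1.50e-05), or about 2.10-fold and 2.23-fold. Atg2a had levels of 0.62, 0.81 and 0.79 on X-3 arrays, 0.15, 0.07 and 0.09 on X-1 arrays, and 0.06, 0.32 and 0.17 on control arrays. It rose with X-3 (0.56 ± 0.12, adjusted p = 0.00331), differed by −0.08 ± 0.12 with X-1, and was higher with X-3 than with X-1 by 0.63 ± 0.12 (adjusted p = 0.0134). That last call was lost without X-1 replicate 2 or 3 or X-3 replicate 2 or 3 (adjusted p 0.0526 to 0.0576), and the rise over control was lost with array-median scaling (adjusted p = 0.120).

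All 16 genes of the conjugation system and of the ATG8 proteins were tested. With X-3, 6 rose and 5 fell, and with X-1, 5 rose and 4 fell, and under spike-in scaling 2 were higher and 9 lower with X-3 while none was higher and 9 were lower with X-1. Atg7, the E1-like enzyme, had levels of −2.54, −2.55 and −2.83 on X-3 arrays, −3.11, −3.48 and −3.46 on X-1 arrays, and −1.49, −1.91 and −1.73 on control arrays. The 3 groups did not overlap, and Atg7 fell by 0.93 on the log2 scale with X-3 (SE 0.16, adjusted p = 0.00113) and by 1.64 with X-1 (SE 0.16, adjusted p = 3.18e-05). Its second probe was dim and was not called in any comparison, and with the mean of both probes neither fall was called (adjusted p = 0.705 with X-3 and 0.748 with X-1).

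Atg10, the E2-like enzyme for ATG12, had levels of −2.18, −1.95 and −1.84 on X-3 arrays, −2.57, −2.58 and −2.58 on X-1 arrays, and −1.17, −0.85 and −0.88 on control arrays. Again the X-3 arrays lay between X-1 and control. The differences were −1.02 ± 0.14 with X-3 (adjusted p = 0.000225) and −1.61 ± 0.14 with X-1 (adjusted p = 1.19e-05). Between the compounds, Atg7 differed by 0.71 ± 0.16 and Atg10 by 0.59 ± 0.14 (adjusted p = 0.0280 and 0.0282), and both were higher with X-3. The Atg7 call between the compounds was lost without control replicate 3, X-1 replicate 2 or 3, or X-3 replicate 2 (adjusted p 0.0542 to 0.104). The Atg10 call was lost without control replicate 3, any X-1 replicate, or X-3 replicate 2 or 3 (adjusted p 0.0534 to 0.0967). Neither call between the compounds held with array-median scaling or with normexp (adjusted p 0.0794 to 0.146).

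ATG16L proteins carry the ATG12-ATG5 conjugate to the membrane, and the 2 genes moved in opposite directions. Atg16l1 rose by 0.70 ± 0.15 with X-3 (adjusted p = 0.00331) and by 0.92 ± 0.15 with X-1 (adjusted p = 0.000645). With array-median scaling its rise with X-3 was not called (0.49, adjusted p = 0.0975). Atg16l2 had levels of −2.08, −2.44 and −2.23 on X-3 arrays, −3.37, −3.42 and −3.19 on X-1 arrays, and −1.25, −1.22 and −1.23 on control arrays. The 3 groups were well apart, and Atg16l2 fell by 1.02 on the log2 scale with X-3 (SE 0.13, adjusted p = 0.000165) and by 2.09 with X-1 (SE 0.13, adjusted p = 1.97e-06). It was 2.11-fold higher with X-3 than with X-1 (log2 difference 1.08 ± 0.13, adjusted p = 0.00379), and within slides 1, 2 and 3 that difference was 1.29, 0.98 and 0.97. Under spike-in scaling Atg16l1 differed from control by −0.10 with X-3 and by 0.14 with X-1, and neither was called.

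Atg12, the ubiquitin-like protein itself, had levels of 3.66, 3.05 and 3.13 on X-3 arrays, 3.65, 3.77 and 3.60 on X-1 arrays, and 2.95, 2.64 and 2.64 on control arrays. Every treated array was above every control array. Atg12 rose by 0.54 ± 0.18 with X-3 (adjusted p = 0.0294) and by 0.93 ± 0.18 with X-1 (adjusted p = 0.00180). With X-3 the call was lost without control replicate 2 or 3 (adjusted p = 0.0898 and 0.0933) and with array-median scaling (0.33, adjusted p = 0.323). Without X-3 replicate 1, the brightest of its group, Atg12 was lower with X-3 than with X-1 (−0.58, adjusted p = 0.0201), where the difference over all arrays was −0.39 ± 0.18 (adjusted p = 0.192). The other 2 Atg12 probes rose with X-3 by 1.18 and 1.09 (adjusted p over all probes = 6.19e-05 and 8.43e-05) and with X-1 by 1.18 and 1.11, and neither was called between the compounds (adjusted p = 1.0 and 0.964).

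Map1lc3a, an ATG8 gene, rose with both compounds. Its levels were 2.52, 2.39 and 2.27 on X-3 arrays, 2.11, 1.88 and 1.98 on X-1 arrays, and 1.33, 1.35 and 1.34 on control arrays. The 3 groups did not overlap. Map1lc3a rose by 1.05 ± 0.12 with X-3 (adjusted p = 7.36e-05), about 2.07-fold, and by 0.65 ± 0.12 with X-1 (adjusted p = 0.00120). Under spike-in scaling these differences were 0.27 and −0.32, and neither was called, and with array-median scaling the rise with X-1 was not called (0.44, adjusted p = 0.0787).

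Map1lc3b, whose protein LC3B is the usual marker of autophagosomes, had levels of 5.41, 5.05 and 5.09 on X-3 arrays, 5.01, 5.34 and 5.12 on X-1 arrays, and 5.26, 5.54 and 5.44 on control arrays. The groups overlapped, and the differences of −0.23 ± 0.15 with X-3 and −0.25 ± 0.15 with X-1 were not called. Its other probe gave another result, described with the probes. Gabarapl1 had levels of 6.24, 6.48 and 6.24 on X-3 arrays, 6.22, 6.68 and 6.59 on X-1 arrays, and 5.91, 5.94 and 5.92 on control arrays. All treated arrays were above control, and Gabarapl1 rose by 0.40 ± 0.14 with X-3 (adjusted p = 0.0430) and by 0.57 ± 0.14 with X-1 (adjusted p = 0.00808). The X-3 call was lost without any 1 control array, X-1 replicate 3, or X-3 replicate 2 or 3 (adjusted p 0.0587 to 0.141), and neither call held with array-median scaling or quantile normalization. A second probe rose by 1.63 with X-3 and by 1.24 with X-1 (adjusted p over all probes = 0.00276 and 0.0107).

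For 2 other ATG8 genes, slide 1 differed from slides 2 and 3. Gabarap was called higher with X-3 (0.91 ± 0.34, adjusted p = 0.0495), with within-slide differences of −0.07, 1.58 and 1.21, and the call was lost without X-1 replicate 1, X-3 replicate 2 or 3, or control replicate 2 or 3 (adjusted p 0.0670 to 0.165). Gabarapl2 differed by 0.52 ± 0.68 with X-3, with within-slide differences of −1.66, 2.01 and 1.19, and was not called. The ATG4 proteases, which trim ATG8 and release it from membranes, were mixed. Atg4b rose with X-3 (0.71 ± 0.14, adjusted p = 0.00220) and with X-1 (0.45 ± 0.14, adjusted p = 0.0222), Atg4a fell with X-3 (−0.75 ± 0.18, adjusted p = 0.00610) and with X-1 (−0.65 ± 0.18, adjusted p = 0.0122), and Atg4d was not called. The X-1 rise of Atg4b was lost without X-1 replicate 2 or 3 or control replicate 2 or 3 (adjusted p 0.0524 to 0.0852), and both Atg4b calls were lost with array-median scaling (adjusted p = 0.0811 with X-3 and 0.395 with X-1).

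**Figure D3:**
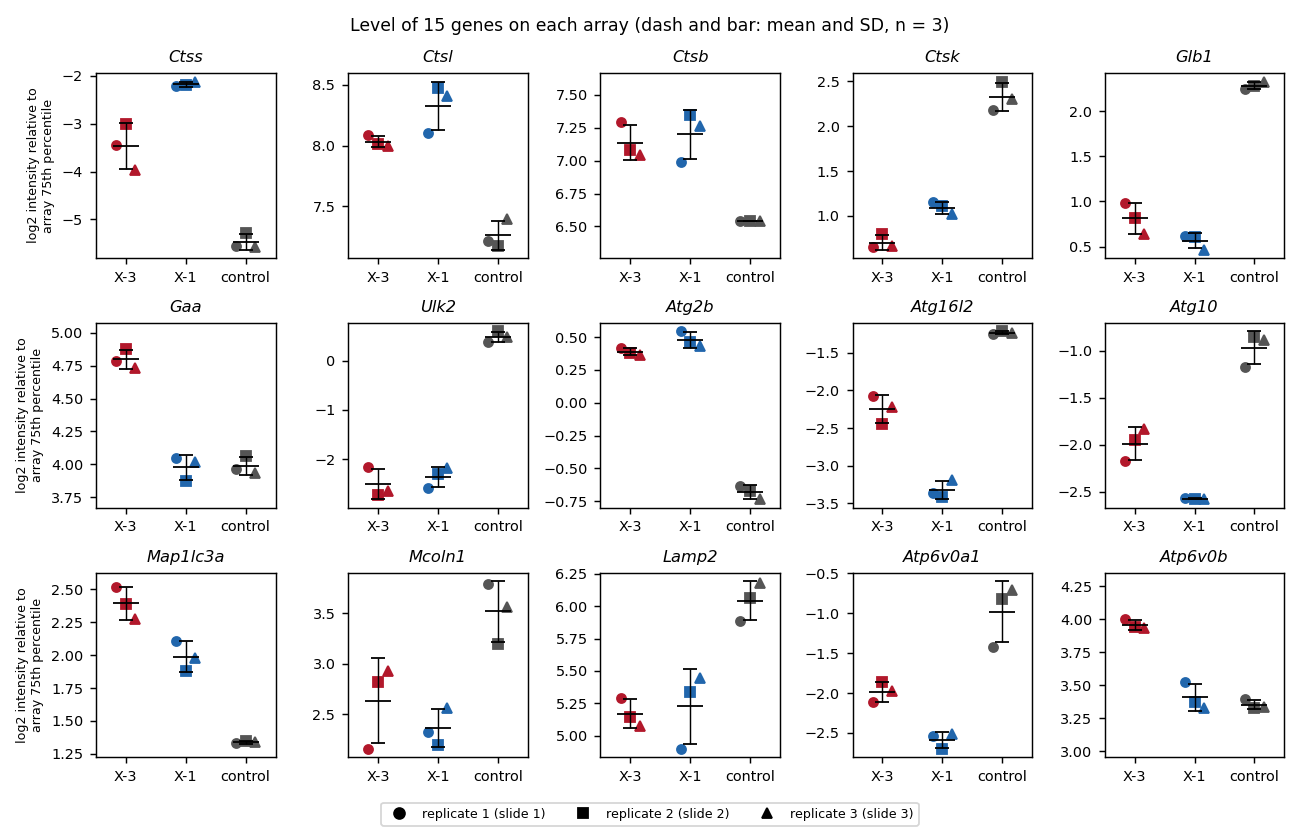
Log2 intensity relative to the 75th percentile of the array for 15 genes, with 1 marker per array (circle, square and triangle for replicates 1, 2 and 3) and mean and SD over 3 arrays, in the order X-3, X-1 and control. The y axes differ between genes; Ctss is highest with X-1, Atp6v0b and Gaa are higher on the X-3 arrays than on the other 6, and Ulk2, Glb1 and Ctsk are highest in control.

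Of the 5 regulator and membrane genes of the lysosome tested, none rose, and 2 fell with X-3 and the same number with X-1. Among all genes tested, 29.3% were called higher and 26.4% lower with X-3, and 28.2% higher and 28.3% lower with X-1. Whether the 5 genes depart from these shares was not tested. Under spike-in scaling 4 were lower with each, where 8379 of all 16736 genes were lower with X-3 and 9940 with X-1. Tfeb, named Tcfeb in the files, was variable. Its levels were −5.25, −3.38 and −4.10 on X-3 arrays, −4.39, −4.83 and −4.70 on X-1 arrays, and −4.57, −2.85 and −4.58 on control arrays. The groups overlapped, and the 95% intervals of the difference reached from −1.49 to 1.00 with X-3 and from −1.88 to 0.60 with X-1. Under spike-in scaling, on replicates 2 and 3 alone, Tfeb was lower with X-3 (−0.74, adjusted p = 0.0250) and with X-1 (−1.95, adjusted p = 5.30e-10), where replicate 2 of control was the brightest array. In that fit the adjusted p followed the size of the difference from gene to gene. These p-values therefore do not measure the spread of Tfeb, whose control replicates 2 and 3 lay far apart.

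Mcoln1, a calcium channel of the lysosomal membrane and a known target of TFEB, had levels of 2.15, 2.81 and 2.93 on X-3 arrays, 2.32, 2.19 and 2.56 on X-1 arrays, and 3.79, 3.20 and 3.56 on control arrays. Every treated array was below every control array. Mcoln1 fell by 0.88 on the log2 scale with X-3 (SE 0.23, adjusted p = 0.0106) and by 1.16 with X-1 (SE 0.23, adjusted p = 0.00241). A second, dimmer probe differed by 0.19 with X-3 and by −0.25 with X-1 and was not called, and the mean of both probes was not called with X-3 (−0.35, adjusted p = 0.215).

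Lamp1 and Lamp2 encode the most abundant proteins of the lysosomal membrane. Lamp2 had levels of 5.29, 5.15 and 5.08 on X-3 arrays, 4.90, 5.34 and 5.45 on X-1 arrays, and 5.88, 6.07 and 6.18 on control arrays. All treated arrays were below control, and Lamp2 fell by 0.87 on the log2 scale with X-3 (SE 0.16, adjusted p = 0.00180) and by 0.82 with X-1 (SE 0.16, adjusted p = 0.00238). A second Lamp2 probe fell with X-3 (−0.63, adjusted p over all probes = 0.00322) and was not called with X-1 (−0.23). Lamp1 had levels of 6.43, 6.50 and 6.47 on X-3 arrays, 6.22, 6.50 and 6.46 on X-1 arrays, and 6.02, 6.22 and 6.20 on control arrays. Its difference of 0.32 ± 0.12 with X-3 just missed the threshold (adjusted p = 0.0501) and was called with the slide as a block (adjusted p = 0.0392), without X-1 replicate 1 (adjusted p = 0.0345) and without X-3 replicate 1 (adjusted p = 0.0451). With X-1 the difference was 0.24 ± 0.12 (adjusted p = 0.115), or 0.33 without X-1 replicate 1 (adjusted p = 0.0468).

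Of the 8 cathepsin genes, which encode proteases of the lysosome, 7 had differences above 0 with X-3 and 6 with X-1. With X-3, 5 rose and 1 fell, and with X-1, 4 rose and 1 fell, with medians of 0.63 and 0.44. Among all genes tested, 29.3% were called higher and 26.4% lower with X-3, and 28.2% higher and 28.3% lower with X-1. Whether the 8 genes depart from these shares was not tested. Quantile normalization gave 5 higher and 1 lower with X-3 (median 0.36), and 3 higher and 2 lower with X-1 (median 0.11). Array-median scaling gave 2 higher and 1 lower with X-3, and 3 higher and 1 lower with X-1. Under spike-in scaling the split turned, with 1 higher and 2 lower with X-3 and 1 higher and 4 lower with X-1. Of all 16736 genes that scaling called 1845 higher and 8379 lower with X-3, and 1543 higher and 9940 lower with X-1.

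Ctss, an endosomal protease known from antigen-presenting cells, showed the largest rise with X-1 among the 60 genes. Its levels were −3.45, −3.01 and −3.96 on X-3 arrays, −2.22, −2.18 and −2.12 on X-1 arrays, and −5.55, −5.29 and −5.57 on control arrays. The 3 groups did not overlap, with X-1 highest. Ctss rose by 2.00 ± 0.22 with X-3 (adjusted p = 6.98e-05), about 4.0-fold, and by 3.30 ± 0.22 with X-1 (adjusted p = 2.99e-06), about 9.85-fold. It was lower with X-3 than with X-1 by a log2 difference of −1.30 ± 0.22 (adjusted p = 0.00965). Of 10 macrophage markers, 6 were measured, and their summed log2 level was 2.00 to 2.17 on X-3, 1.76 to 2.01 on X-1 and 1.70 to 1.82 on control arrays, while Adgre1, Ptprc, Itgam and Tyrobp had no probe that could be tested. With X-3, 4 of the 6 rose and 1 fell (median 1.1), and with X-1, 4 rose and 1 fell (median 0.79). Mrc1 rose by 3.02 with X-3 and by 3.97 with X-1, and Csf1r, Cd14 and Cd68 rose as well, while Lyz2 fell by 1.52 on the log2 scale with X-3 and by 1.57 with X-1. The part of these markers in the Ctss result was not tested.

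Ctsl, an endopeptidase of the lysosome, had levels of 8.08, 8.01 and 8.0 on X-3 arrays, 8.10, 8.47 and 8.41 on X-1 arrays, and 7.21, 7.18 and 7.39 on control arrays. All treated arrays were above control, and Ctsl rose by 0.77 ± 0.13 with X-3 (adjusted p = 0.00102) and by 1.07 ± 0.13 with X-1 (adjusted p = 0.000125). Under spike-in scaling its differences were 0.01 and 0.25, and neither was called.

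Ctsb had levels of 7.29, 7.08 and 7.04 on X-3 arrays, 6.99, 7.34 and 7.26 on X-1 arrays, and 6.54 on each control array. The treated groups overlapped each other above control. Ctsb rose by 0.59 ± 0.13 with X-3 (adjusted p = 0.00412) and by 0.66 ± 0.13 with X-1 (adjusted p = 0.00221), and neither call held with array-median scaling or quantile normalization. Ctsd, the main aspartic protease of the lysosome, had levels of 7.09, 6.61 and 6.50 on X-3 arrays, 6.30, 6.36 and 6.16 on X-1 arrays, and 6.0, 6.11 and 6.05 on control arrays. It rose with X-3 (0.68 ± 0.16, adjusted p = 0.00647), with within-slide differences of 1.1, 0.50 and 0.45, and its difference with X-1 of 0.22 ± 0.16 was not called. With array-median scaling Ctsd was not called with X-3 either (0.47, adjusted p = 0.139). By a second Ctsd probe it rose by 1.41 with X-3 (adjusted p over all probes = 8.02e-05) and by 0.50 with X-1 (adjusted p = 0.0212), and was higher with X-3 than with X-1 by 0.91 (adjusted p = 0.0121). The brightest probe was not called between the compounds (0.46, adjusted p = 0.106), but was with quantile normalization (adjusted p = 0.0419), as was the mean of both probes (0.68, adjusted p = 0.0201).

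Ctsh, an aminopeptidase, had levels of −1.93, −2.34 and −2.27 on X-3 arrays, −1.77, −1.70 and −1.46 on X-1 arrays, and −2.79, −2.89 and −2.85 on control arrays. The groups did not overlap, and Ctsh rose by 0.66 ± 0.14 with X-3 (adjusted p = 0.00400) and by 1.20 ± 0.14 with X-1 (adjusted p = 0.000108). With array-median scaling the rise with X-3 was not called (0.45, adjusted p = 0.127). Ctsh was lower with X-3 than with X-1 (−0.54 ± 0.14, adjusted p = 0.0470), and that call was lost with the slide as a block (adjusted p = 0.0604) and without any 1 array except X-3 replicate 1 (adjusted p 0.0598 to 0.162).

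Ctsk, a collagen-degrading cathepsin, went the other way. Its levels were 0.65, 0.79 and 0.66 on X-3 arrays, 1.15, 1.11 and 1.02 on X-1 arrays, and 2.19, 2.5 and 2.30 on control arrays. All treated arrays were far below the lowest control array, and the X-3 arrays were below the X-1 arrays. Ctsk fell by 1.62 on the log2 scale with X-3 (SE 0.12, adjusted p = 7.38e-06) and by 1.23 with X-1 (SE 0.12, adjusted p = 2.92e-05). The difference between the compounds, −0.39, was not called (adjusted p = 0.0727).

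The 6 genes for glycosidases, lysosomal acid lipase and saposin could all be tested. With X-3, 3 rose and 2 fell, and with X-1, 1 rose and 2 fell, and under spike-in scaling none was higher while 2 were lower with X-3 and 5 with X-1. Glb1, the lysosomal beta-galactosidase, had levels of 0.99, 0.82 and 0.64 on X-3 arrays, 0.62, 0.61 and 0.47 on X-1 arrays, and 2.25, 2.27 and 2.33 on control arrays. The treated arrays were far below control. Glb1 fell by 1.47 on the log2 scale with X-3 (SE 0.12, adjusted p = 1.43e-05) and by 1.72 with X-1 (SE 0.12, adjusted p = 4.59e-06).

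Gaa, the acid alpha-glucosidase that breaks down glycogen in lysosomes, had levels of 4.78, 4.87 and 4.73 on X-3 arrays, 4.05, 3.87 and 4.02 on X-1 arrays, and 3.96, 4.06 and 3.94 on control arrays. Only the X-3 arrays stood apart. Gaa rose by 0.81 ± 0.11 with X-3 (adjusted p = 0.000253) and differed by −0.01 ± 0.11 with X-1, with a 95% interval from −0.26 to 0.24. The difference between the compounds was 0.82 ± 0.11 (adjusted p = 0.00493), and within slides 1, 2 and 3 it was 0.74, 1.00 and 0.72.

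Gla, the alpha-galactosidase, had levels of 3.02, 2.72 and 2.70 on X-3 arrays, 2.68, 2.70 and 2.51 on X-1 arrays, and 2.10, 1.98 and 1.97 on control arrays. All treated arrays were above control, and Gla rose by 0.80 ± 0.13 with X-3 (adjusted p = 0.000702) and by 0.61 ± 0.13 with X-1 (adjusted p = 0.00291). With array-median scaling the rise with X-1 was not called (0.41, adjusted p = 0.135). A dim second probe differed by 0.01 with X-3 and by 0.49 with X-1 and was not called, and the mean of both was not called with X-3 (0.40, adjusted p = 0.118). Hexa, a subunit of beta-hexosaminidase, fell with X-3 (−0.41 ± 0.13, adjusted p = 0.0246) and with X-1 (−0.59 ± 0.13, adjusted p = 0.00408), and the X-3 call was lost without control replicate 1 or 3 or X-3 replicate 2 or 3 (adjusted p 0.0576 to 0.0930).

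Psap, the precursor of the saposins that help lipid hydrolases, had levels of 3.72, 4.62 and 4.73 on X-3 arrays, 3.24, 3.11 and 4.06 on X-1 arrays, and 3.40, 3.32 and 3.57 on control arrays. X-3 replicate 1 and X-1 replicate 3 stood apart from their groups. Psap was called higher with X-3 (0.93 ± 0.31, adjusted p = 0.0313), with within-slide differences of 0.33, 1.30 and 1.16. The call was lost without any 1 control array or without X-3 replicate 2 or 3 (adjusted p 0.0545 to 0.106). Without X-3 replicate 1 Psap was higher with X-3 than with X-1 (1.20, adjusted p = 0.0184), where over all arrays the difference was 0.89 (adjusted p = 0.106).

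Seen across roles, the 12 genes called in X-3 over X-1 were Atp6v1c2, the 4 V0 genes, Atg2a, Atg7, Atg10, Atg16l2, Gaa, Ctss and Ctsh. By the brightest probe, both compounds were below control for Atg7, Atg10 and Atg16l2, and X-3 was nearer to it. The mean of both Atg7 probes did not give this order (X-3 over X-1 −0.034, adjusted p = 0.974). For Ctss and Ctsh both compounds were above control and X-3 was again nearer to it. For Gaa, Atg2a, Atp6v0b, Atp6v0c and Atp6v0e2 the X-3 arrays stood above control and the X-1 arrays overlapped it. For genes not called, the interval shows what the arrays could resolve: in X-3 over X-1 it ran from −0.31 to 0.36 for Map1lc3b, from −0.20 to 0.35 for Lamp1, from −0.36 to 0.23 for Ctsb and from −0.85 to 1.64 for Tfeb. These intervals hold for the brightest probe alone: a second Ctsb probe was higher with X-3 than with X-1 by 0.84 (adjusted p over all probes = 0.0396). The count of 12 ranged from 5 to 16 when 1 array was left out, and it was 5 with array-median scaling or with no filter on dim probes. Within slide 1 the median of the 60 genes in X-3 over X-1 was 0.32 (all genes 0.16), within slide 2 it was 0.12 (all genes −0.02) and within slide 3 it was 0.06 (all genes −0.0019).

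Several genes had more than 1 probe above background, and the probes did not always agree. Of 38 such genes, the probes gave different calls for 14 in X-3 over control and for 17 in X-1 over control. The values below are from a fit to all 25288 probes, with p adjusted over those. Here 4 genes are shown with their probes because the result depends on the probe chosen, a choice made after the values were seen. The first 30 of 60 bases are printed, and the position is that of the whole probe in mm9 as the files give it:
Ulk2, brightest probe, chr11:61589841-61589900: ccagcagttaatttgaacgtttatgtatag
Ulk2, probe 2, chr11:61591298-61593191: gaaaatgtgcataagtataaatgtagtatt
Ulk2, probe 3, chr11:61616935-61616994: ttatctgttgtgctgtatccttctcccaac
Becn1, brightest probe, chr11:101151771-101152713: ggtctgaagtttcagaggtaccgacttgtt
Becn1, probe 2, chr11:101148077-101148136: cgagtatgaaatgtgatcctaaactctagg
Uvrag, brightest probe, chr7:106035448-106035507: agtgtgcagaccacgagacagttgagatag
Uvrag, probe 2, chr7:106260875-106266742: cctacttcactcttcatttgtgtgataatg
Map1lc3b, brightest probe, chr8:124121771-124121830: cactgctctgtcttgtgtaggttgtatacg
Map1lc3b, probe 2, chr8:124119924-124119983: cgtcctggacaagaccaagttcctggtgcc

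For Ulk2, the brightest and the third probe fell (−3.0 and −2.08 with X-3, −2.85 and −2.10 with X-1), while the second differed by −0.01 with each compound and was not called ( adjusted p = 0.964 with X-3 and 0.963 with X-1). The second Becn1 probe, dimmer than the first, had levels of −4.97, −4.90 and −4.96 on X-3 arrays, −5.42, −5.59 and −5.07 on X-1 arrays, and −3.68, −3.42 and −3.41 on control arrays. It fell by 1.44 on the log2 scale with X-3 (adjusted p = 8.07e-05) and by 1.86 with X-1 (adjusted p = 1.55e-05), where the brightest probe was not called. The second Uvrag probe rose by 1.49 with X-3 (adjusted p = 0.00321) and by 1.11 with X-1 (adjusted p = 0.0136), opposite to the first.

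The second Map1lc3b probe, assigned to the same transcript as the first, had levels of 4.94, 4.77 and 4.89 on X-3 arrays, 4.70, 5.44 and 5.30 on X-1 arrays, and 3.53, 4.19 and 4.09 on control arrays. All treated arrays were above control. By this probe Map1lc3b rose by 0.93 with X-3 (adjusted p = 0.00858) and by 1.21 with X-1 (adjusted p = 0.00200). The Atg4c probes also went apart, with 1 at −1.42 (adjusted p = 0.0170) and another at 1.07 (adjusted p = 0.000674) in X-3 over control, both dim, and the brightest at −0.08 and not called. What the probes of a gene share or lack in transcript structure was not tested.

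**Figure D4:**
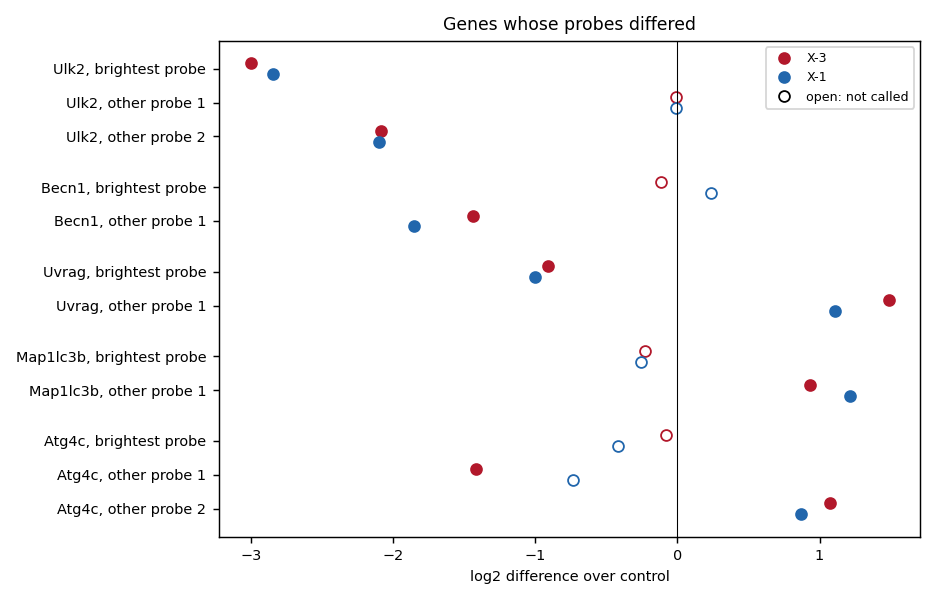
Log2 difference from control with X-3 (red) and X-1 (blue) for every probe above background of 5 genes whose probes differed, brightest probe first; filled points were called over 25288 probes. The Uvrag probes lie on opposite sides of 0, 1 of 3 Ulk2 probes lies at −0.01, and the second Map1lc3b probe lies at 0.93 and 1.21.

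A further 3 autophagy genes of the same complexes carry other names in the files and were not counted above. Atg13, a subunit of the ULK complex, rose by 1.48 ± 0.10 with X-3 (adjusted p = 5.28e-06) and by 1.07 ± 0.10 with X-1 (adjusted p = 2.73e-05). Atg14, a subunit of the Beclin 1 complex, rose by 0.54 ± 0.14 with X-3 (adjusted p = 0.00910) and by 0.57 ± 0.14 with X-1 (adjusted p = 0.00657). Atg101, another subunit of the ULK complex, was not called with either compound.

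Around these genes, 7 lists of other genes of the same processes held 127 tested genes. With X-3, 32 rose and 37 fell (54.33%), and with X-1, 32 rose and 48 fell (62.99%), against backgrounds of 55.6% and 56.5%. Under spike-in scaling every one of the 7 lists had more genes lower than higher with both compounds. So had all genes tested, with 1845 higher and 8379 lower with X-3, and 1543 higher and 9940 lower with X-1. Of 29 other lysosomal hydrolases, the largest of the lists, 4 rose and 14 fell with X-3, and 3 rose and 17 fell with X-1, with medians of −0.18 and −0.63. Gusb, the beta-glucuronidase, fell by 1.75 on the log2 scale with X-3 (SE 0.16, adjusted p = 2.15e-05) and by 2.25 with X-1 (SE 0.16, adjusted p = 3.93e-06). Dnase2a, which digests DNA in lysosomes, rose by 2.17 ± 0.29 with X-3 (adjusted p = 0.000244) and by 1.96 ± 0.29 with X-1 (adjusted p = 0.000396).

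In X-3 over X-1, 8 of these 29 hydrolases were called and all were higher, against a background of 7.19% called higher. Array-median scaling left 2 of them called. Naglu, Galns, Sgsh and Idua were among the 8 and were chosen as examples after their values were seen. Naglu differed by 1.03 ± 0.11 (adjusted p = 0.00379), Galns by 0.68 ± 0.18 (adjusted p = 0.0449), Sgsh by 0.64 ± 0.15 (adjusted p = 0.0314) and Idua by 0.52 ± 0.13 (adjusted p = 0.0418). With X-1, Naglu fell by 1.04 on the log2 scale, Sgsh by 0.82 and Galns by 0.63, while Idua was not called. With X-3, Idua rose by 0.84 and the others were not called. The within-slide medians of the 29 genes in X-3 over X-1 were 0.52, 0.14 and 0.14 on slides 1, 2 and 3.

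The other lists were mixed. Among 14 tested autophagy receptors, 7 rose and 2 fell with X-3, and 4 rose and 2 fell with X-1. Bnip3, a mitophagy receptor and a known hypoxia target, rose by 4.25 ± 0.22 with X-3 (adjusted p = 1.40e-06) and by 4.56 ± 0.22 with X-1 (adjusted p = 6.91e-07).

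Of 18 other initiation and fusion genes, 6 rose and 1 fell with X-3, and 9 rose and 4 fell with X-1. Vmp1, a membrane protein needed to form autophagosomes, rose by 1.92 ± 0.16 with X-3 (adjusted p = 1.34e-05) and by 2.52 ± 0.16 with X-1 (adjusted p = 2.31e-06). Wdr45, a phosphoinositide-binding WIPI protein, fell by 0.60 on the log2 scale with X-3 and by 0.74 with X-1. Of 17 other lysosomal membrane genes, 6 rose and 4 fell with X-3, and 6 rose and 7 fell with X-1. Scarb2, the receptor that carries beta-glucocerebrosidase to lysosomes, rose by 2.66 ± 0.15 with X-3 (adjusted p = 1.70e-06) and by 2.81 ± 0.15 with X-1 (adjusted p = 9.15e-07). Ctns, the cystine exporter, had the largest fall with X-3 (−1.11 ± 0.16), and Tpcn1, a cation channel, had it with X-1 (−1.56 ± 0.14).

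Of 25 genes for TFEB-family factors and for mTORC1 signalling at the lysosome, 5 rose and 10 fell with X-3, and 4 rose and 9 fell with X-1. Ddit4, an inhibitor of mTORC1, rose by 2.45 ± 0.44 with X-3 (adjusted p = 0.00136) and by 2.59 ± 0.44 with X-1 (adjusted p = 0.000886). Lamtor4, a subunit of the Ragulator complex, fell by 1.22 on the log2 scale with X-3 (SE 0.16, adjusted p = 0.000198) and by 1.5 with X-1 (SE 0.16, adjusted p = 4.73e-05). None of the 25 was called in X-3 over X-1 by limma, with 4 at an unadjusted p below 0.05 and 2 called under spike-in scaling.

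Of 12 genes for V-ATPase accessory and assembly proteins, 3 rose and 4 fell with X-3, and 5 rose and 5 fell with X-1. Vma21, an assembly factor of the V0 sector, rose by 1.27 ± 0.28 with X-3 (adjusted p = 0.00412) and by 1.4 ± 0.28 with X-1 (adjusted p = 0.00233), and Wdr7, a partner of the Rabconnectin protein, fell by 1.36 on the log2 scale with X-3 and by 1.64 with X-1. Of 12 genes that deliver hydrolases to lysosomes, 1 rose and 2 fell with X-3, and 1 rose and 4 fell with X-1. M6pr, a mannose 6-phosphate receptor, rose by 0.68 ± 0.16 with X-3 and by 0.82 ± 0.16 with X-1, and Gga2, a sorting adaptor, fell by 0.80 on the log2 scale with X-3 and by 1.05 with X-1. None of these 12 was called in X-3 over X-1 by limma, none had an unadjusted p below 0.05, and 1 was called with the mean of all probes.

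**Figure D5:**
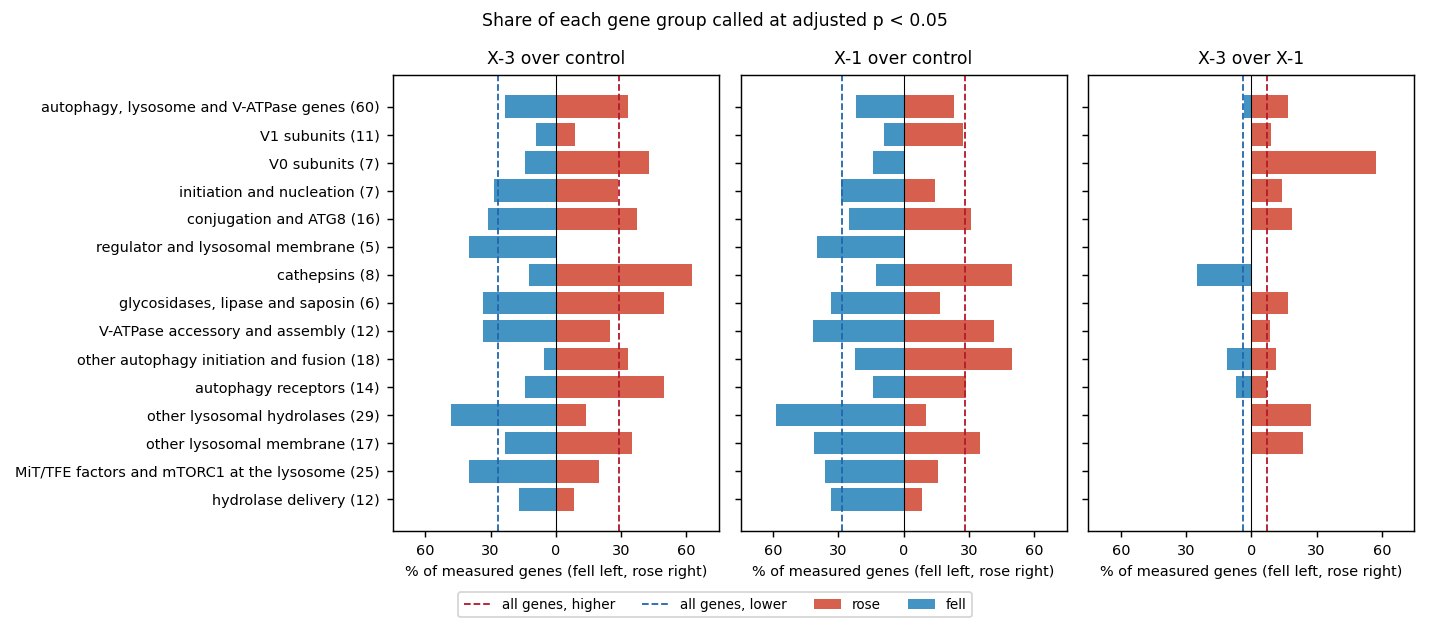
Share of the tested genes of each group that rose (red, right) or fell (blue, left) in X-3 over control, X-1 over control and X-3 over X-1, with the number tested in parentheses and dashed lines at the share of all 16736 genes. Cathepsins have more genes right of 0 and other lysosomal hydrolases more left of 0 over control, and V0 subunits have 4 of 7 right of 0 in X-3 over X-1. Under spike-in scaling the cathepsin split turned in both comparisons over control, where most called genes among all 16736 were lower too.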

How the data were processed

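Per the file headers, the deposited files of each array list an intensity for every spot, read with Agilent Feature Extraction (version 10.5.1.1 for replicate 1 and 10.7.3.1 for replicates 2 and 3), which subtracted background, corrected spatial trends and replaced low values by a surrogate. Version 9.1 stands in the submitters' processing notes. A deposited table of the whole series gives 1 score per probe and array, with a median of −0.12 in each column; the values show mean 0 and SD 1, and the scores followed log2 intensity (r of 0.998 or more). How they were centred and scaled is not stated. They served as an alternative.

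Outlier-marked spots were left out, spots of a probe were averaged, and the log2 of each deposited intensity was reduced by the array's 75th percentile. Probes were kept (25288) where some group had them well above background on each of its 3 arrays, and each gene was represented by its brightest kept probe. Probes were named by accession (24990), symbol (6290) or synonym (1625) in a RefSeq gene table, and 8055 kept the files' name. All 9 arrays entered 1 two-sided limma 3.58.1 fit (R 4.3.3; lmFit, eBayes) with group as the only term, which was tested on simulated data, and p-values were adjusted by Benjamini-Hochberg over 16736 genes. The number of arrays limits the precision.

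The genes, lists and naming rule were chosen with earlier results of these data known. In each role the rule named the largest rise and fall over control, up to 3 genes called in X-3 over X-1, genes whose probes were called in opposite directions and 13 set genes (Ulk1, Becn1, Map1lc3b, Gabarapl1, Tfeb, Mcoln1, Lamp1, Lamp2, Ctsd, Ctsb, Ctsl, Atp6v1a and Atp6v0c). In each list it named the largest rise and fall. Some genes so named are not reported here. Genes given beyond it were chosen after their values were seen. Distances from the group mean, for arrays with the same number, correlated across genes at 0.238, 0.112 and 0.230 for X-3 and control and at 0.517, 0.318 and 0.271 for X-1 and control (replicates 1, 2 and 3), so the numbers pair these arrays, which shared slides. For X-3 and X-1 they were −0.041, −0.182 and 0.156.

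Alternatives were array-median, quantile and spike-in scaling (8 spike-in RNAs, replicates 2 and 3), normexp background correction (offset 50, on the median signal, since the mean signal is only in the replicate 1 files), no filter on dim probes, the mean of all kept probes, the slide as a block, the deposited scores and leaving out each array. A bound on a fold used, per dim array, the higher of the probe's own signal and the lowest signal well above background.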

Additional observations from a re-analysis of the deposited data

How the results depend on the processing

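Direction was compared only where at least 1 setting gave a call. Of 840 comparisons of a named gene's difference with another setting, 726 kept direction and side of the threshold, 65 lost the call, 27 gained one and 22 reversed; of 945 with 1 array left out, 885 kept both, 52 lost the call and 8 gained one. Under spike-in scaling, differences reversed with X-3 for Atp6v0e2 (−0.073), Atp6v0c (−0.10), Atp6v0b (−0.11), Atg2a (−0.15), Atg12 (−0.26), Ctsh (−0.15), Gabarapl1 (−0.28), Ctsd (−0.24) and Ctsb (−0.19), and with X-1 for Atp6v0e2 (−0.81), Atp6v0b (−0.88), Map1lc3a (−0.32), Gla (−0.27), Psap (−0.76), Gabarapl1 (−0.20), Ctsd (−0.72) and Ctsb (−0.14). That setting uses 6 of the 9 arrays and moves the median of all genes by −0.71 and −0.90. With the mean of all probes, differences reversed for Uvrag with X-3 (0.29) and X-1 (0.050), for Becn1 (−0.81) and Map1lc3b (0.48) with X-1, and for Atg7 in X-3 over X-1 (−0.034), where the probes differ.

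In X-3 over X-1 the 12 genes called became 5 with array-median scaling, 7 with normexp, 5 with no filter on dim probes and 5 to 16 with 1 array left out, and the 19 called in the lists became 3, 5 (no filter) and 4 to 25; beyond the larger number of genes tested without the filter, the cause was not tested. With 1 array left out, the genes called ranged from 28 to 36 with X-3 and from 23 to 30 with X-1, and those of the lists from 56 to 72 and from 66 to 85. With the slide as a block the counts were 35, 28 and 11 (X-3 over control, X-1 over control, X-3 over X-1), and 72, 78 and 18 in the lists; among the named genes it changed only the calls of Lamp1 with X-3 and Ctsh in X-3 over X-1. Signal over background limits Atp6v1c2 to bounds.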
